A study of Homo sapiens with 115 samples.

Results

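Newly budded progenies of p53+/+ HCT116 cells, the stage labelled [S], were compared here with budding cells, the stage labelled [B], in name prefixes that hold both. Members were the p53+/+ cells whose titles start with 1219, 1229, 617 or 707 and whose stage is [S] or [B]. There were 17 such cells, 10 [S] and 7 [B], which is 14.8% of the cells of the whole series, and they stood among 21 [S] and 28 [B] cells of the p53+/+ line. Prefix 1219 held 3 progenies and 3 budding cells, prefix 1229 held 4 and 2, prefix 617 held 2 and 1, and prefix 707 held 1 and 1. The series spans 5 stages and 2 lines. HCT116 is a human colorectal cancer cell line, and the p53-/- line lacks p53 after homologous recombination in the same parental cells. By the labels both stages had been given 8 Gy and were taken on day 10, and the labels separate them by the stage alone. Each library came from 1 hand-picked cell by full-length cDNA amplification, and no molecular identifiers were used. The labels do not say that cells with the same prefix shared a dish, so the prefix stands only for digits shared by titles, and the spread between prefixes may be technical. The title of progeny 707G3 carries the G that other titles give to budding cells, and its label [S] was followed.

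Cells that survive a large dose of radiation can skip division while still copying their DNA, and so become giant and polyploid. In the study these are called radiation-tolerant persister cells, and a budding cell is a giant cell that is pinching off a small daughter. p53 is the transcription factor that answers DNA breaks. It switches on CDKN1A, whose product p21 blocks the cyclin-dependent kinases, and with them the E2F-driven genes of DNA synthesis and the later genes of mitosis. Cycling cells carry transcripts of both programmes. Whether the budded progeny differs from the budding cell in these and other programmes is what the comparison asks.

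Counts per cell ranged from 14589835 to 81951140, with a median of 31364855. In progenies 7714 to 16415 genes had a count, with a median of 13030, and in budding cells 13456 to 18379, with a median of 15829. With every cell thinned to 14589835 counts the medians were 12750 and 15695. The difference, progenies minus budding cells, was then -2638 genes (SD 1710, n = 4 prefixes) and below 0 in all 4 (exact two-sided sign-flip permutation p = 0.125, the smallest 4 prefixes allow, and 0.312 after adjustment over 5 library measures). Mitochondrial rRNA took 1.20% to 37.5% of counts in progenies and 1.91% to 7.87% in budding cells, and 2 progenies, 617S1 at 37.5% and 1229S1 at 22.4%, stood above the rest. The colorectal epithelial markers summed to 3193 to 22217 CPM (counts of a gene scaled to an equal total per cell, so a relative level) in progenies and 1650 to 28685 CPM in budding cells, and of its 8 genes CDX1 and VIL1 were at 0 in all 17 cells. Fibroblast markers summed to at most 10.4 CPM, endothelial markers to at most 19.5 CPM, leukocyte markers to at most 1.43 CPM and erythroid markers to at most 2.74 CPM in any cell. Across 12402 genes every one of the 10 progenies had a higher median Pearson correlation with the budding cells, 0.672 to 0.854, than with the other progenies, 0.620 to 0.763. All 7 budding cells did so too, at 0.792 to 0.846 against 0.737 to 0.781. Budding cells also had the more genes detected, and the part of this in the correlations was not tested.

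**Figure D1:**
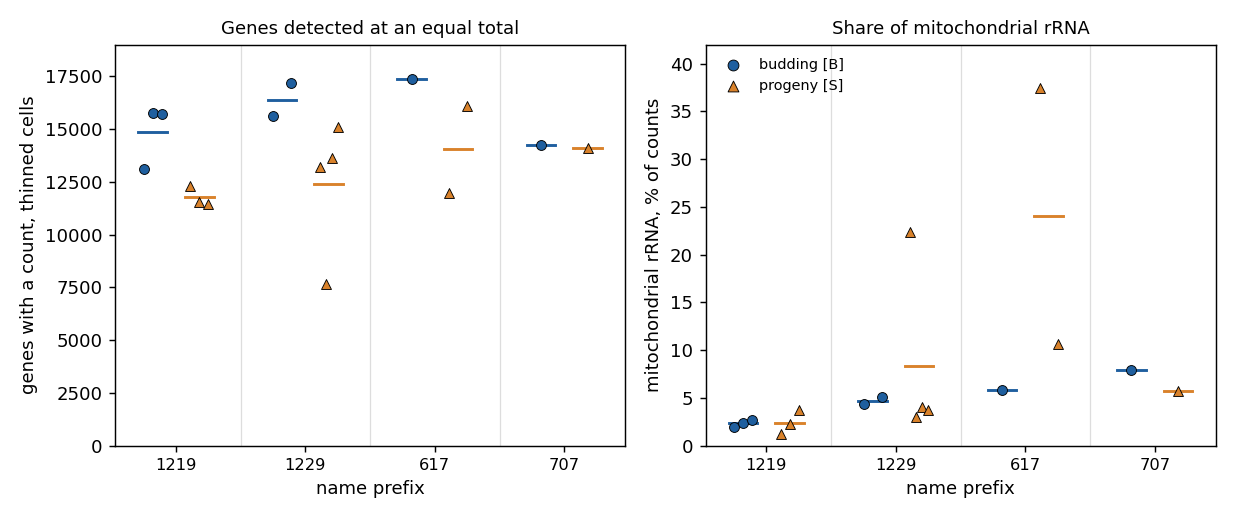
Each point is 1 cell, grouped by name prefix, with budding cells [B] as blue circles, progenies [S] as orange triangles and the mean of a prefix and stage as a bar. The left plot gives the genes with a count after thinning to an equal total, where the bar of [S] is below that of [B] in all 4 prefixes, and the right plot gives the percent of counts from mitochondrial rRNA, where 617S1 at 37.5% and 1229S1 at 22.4% are highest.

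No gene passed the test between progenies and budding cells. Cells of the same prefix and stage were pooled by adding their counts, which gave 8 sums, and edgeR was run on these with the prefix as a block. Of 15413 genes, 0 (0.0%) had an adjusted p under 0.05, and 435 (2.82%) had an unadjusted p under 0.05, of which 168 (1.09%) were higher and 267 (1.73%) lower in progenies. With DESeq2 the 8 sums gave 20 calls in favour of progenies (0.13%) and 69 in favour of budding cells (0.448%). In data simulated with the spread of these sums DESeq2 made many more false calls than edgeR (282 against 11) and than its threshold allows, so nothing below rests on its calls. In the same data edgeR recovered 4 of 50 genes changed 2-fold (8%), 23 of 50 changed 4-fold (46%) and 43 of 50 changed 8-fold (86%). A count of 0 called genes thus leaves room for differences of 2-fold and 4-fold, and less for those of 8-fold. The changed genes were drawn at a mean above 20 CPM and with no difference between prefixes, so recovery at lower levels is not known. The log2 fold change, [S] over [B], was above 0 for 6685 genes (43.4%) and below 0 for 8728 (56.6%), with a median of -0.12 over all genes, so list medians are to be read against that value. The spread between sums was wide, with a biological coefficient of variation of 0.900. Levels and differences below are therefore descriptions of these cells. In this comparison of 4 prefixes every gene named has an adjusted p of 0.999 from edgeR unless another value is given. SE stands for standard error.

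Genes of proliferation stood well above the median of all genes, with more transcript in progenies of 3 prefixes and less in those of the fourth. Of 38 G2/M and mitotic spindle genes, 36 had a log2 fold change above 0, with a median of 1.55. Of 40 genes of the G1/S transition and DNA replication 37 were above 0 (median 0.89), of 25 genes of homologous recombination and the Fanconi anaemia pathway 23 were (median 1.25), and of 16 measured genes of cytokinesis and abscission 14 were (median 1.25). None was called, and unadjusted p was under 0.05 and in the direction of progenies for 4, 2, 2 and 2 of them. Within prefixes the median difference of the G2/M genes was 4.27 on the log2 scale in prefix 707, 2.12 in 617 and 1.22 in 1229, but -1.58 in prefix 1219. The G1/S genes gave 4.01, 0.79, 0.81 and -1.78 in the same order.

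The promoters of these genes are known for 2 short elements, and a few matches are shown for genes described below. The cell cycle homology region, with the letters TTTGAA, is bound by the DREAM complex, which keeps mitotic genes off in arrested cells, and the E2F element, searched as TTTGGCGC and TTTCCCGC, serves the genes of DNA synthesis. On either strand of the 250 bases before the start site (RefSeq, GRCh38.p14), TTTGAA stood in 17 of 31 G2/M genes with a promoter in the tables (54.8%), against 16.1% of 27305 gene promoters. The E2F letters stood in 14 of 35 G1/S genes (40%), against 2.36%. Neither motif contains the other. In the windows below, all before the start site and so outside the transcript, capitals mark the element.
MKI67, chr10:128126453-128126482, minus strand: ttagcgccagaaTTTGAAtcttcgttttcg
KIF23, chr15:69414282-69414311, plus strand: ctgattggcccgTTTGAAatgcgccaggcg
MCM6, chr2:135876577-135876606, minus strand: agggctttgcaTTTGGCGCgaaatcccttt
MCM6, chr2:135876515-135876544, minus strand: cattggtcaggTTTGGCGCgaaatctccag
A match says only that the letters are there. No TTTGAA window was found for CENPF or AURKB, and no E2F window for CHAF1A, FANCA or UBE2T, which are described below too. Whether these lack the letters or a promoter in the set searched was not looked at.

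MKI67, which encodes the proliferation antigen Ki-67, ran from 0.29 to 320.9 CPM in progenies (median 43.3) and from 2.31 to 274.7 CPM in budding cells (median 5.94). The 2 ranges overlapped nearly in full, and 1 progeny was above the highest budding cell. Its log2 fold change was 2.83 (SE 1.24). CENPF, a kinetochore protein, had medians of 25.2 CPM in progenies and 16.7 CPM in budding cells, and its log2 fold change was 2.00 (SE 0.71). KIF23, the spindle midzone kinesin needed for abscission, had medians of 27.7 and 8.96 CPM and a log2 fold change of 2.07 (SE 0.86). AURKB, the kinase of the chromosomal passenger complex, had medians of 11.4 and 12.9 CPM, close to each other, and a log2 fold change of 1.56 (SE 0.56), with 3 progenies above and 4 below all budding cells. MCM6, a subunit of the replicative helicase, was higher in progenies of all 4 prefixes, by 0.30 to 3.51 on the log2 scale, with a log2 fold change of 1.37 (SE 0.56). So was INCENP, the scaffold of the passenger complex, by 0.68 to 2.76 (log2 fold change 1.67, SE 0.54). SPAST, which severs microtubules at the midbody, was higher by 0.51 to 1.71 (log2 fold change 1.33, SE 0.50). CHAF1A, a histone chaperone at the replication fork, rested on 1 cell, with 158.3 CPM in 707G3 and at most 29.6 CPM in the other progenies (log2 fold change 1.68, SE 0.73). FANCA, of the Fanconi core complex, had a log2 fold change of 2.07 (SE 0.91), and UBE2T, its E2 enzyme, one of 1.00 (SE 0.44).

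Single cells of both stages stood far apart in these genes. As the mean of log2(CPM + 1) over the G2/M list, progenies ran from 1.77 to 6.20 (median 3.93) and budding cells from 2.23 to 6.97 (median 3.25). Stage [N] of the series holds 6 p53+/+ cells that the study calls unirradiated. Their labels list 8 Gy too, with a day earlier than that of any other stage, and the word of the study was followed. In these 6 unirradiated cells the same level was 6.98 to 7.67. No progeny reached that range, and the highest cell was a budding cell, 1219G3. For the G1/S list progenies ran from 2.70 to 6.40 and budding cells from 2.61 to 5.87, against 6.17 to 7.03 in unirradiated cells, and 1 progeny, 707G3, lay within the unirradiated range. Unlike the G2/M medians, the median cell of the G1/S list was lower in progenies, at 3.30 against 3.77. So it was for the homologous recombination list, at 2.07 against 2.37, and for the cytokinesis list, at 3.98 against 4.203. The direction given by the prefix sums was thus not that of the median cell, taken over all prefixes, in 3 of the 4 lists. Averaged within prefixes first, the same level was higher in progenies by 0.72 (SD 2.29) for the G1/S list, in 3 prefixes. The mean difference was 0.53 (SD 1.54) for homologous recombination and 0.55 (SD 1.69) for cytokinesis, each higher in 2 of the 4 prefixes. Within prefix 1229 progenies held both a level of 6.20 for the G2/M list, in 1229S1, and one of 1.77, in 1229S3. In prefix 617 the progenies were at 6.10 and 2.14, on either side of the budding cell at 3.25. The gap between the stage medians was smaller than that between progenies of the same prefix.

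**Figure D2:**
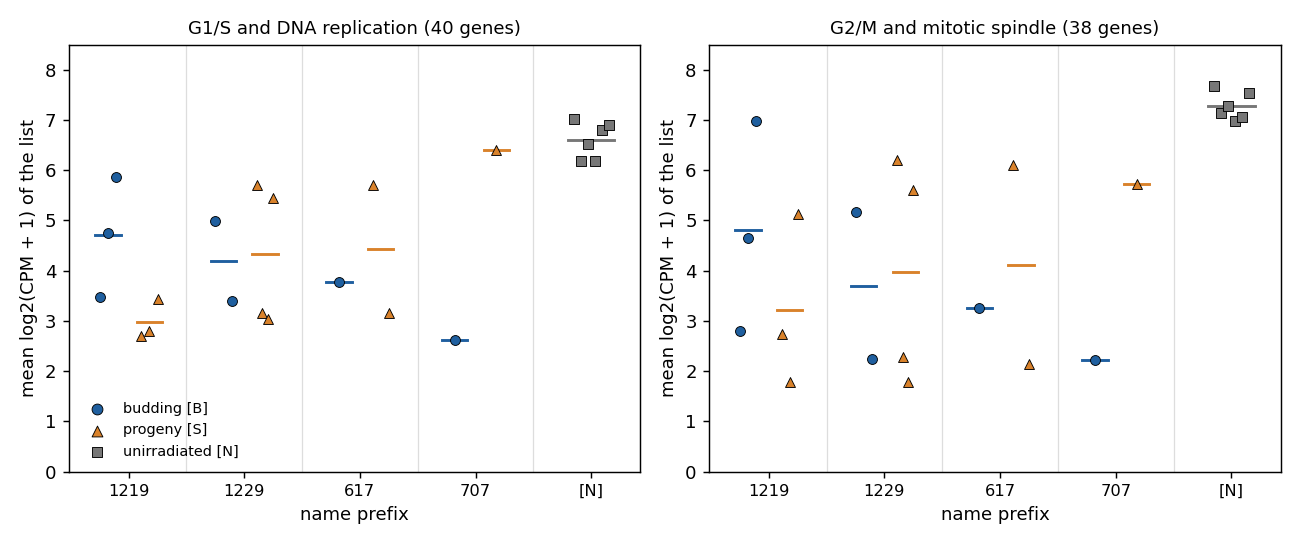
Mean log2(CPM + 1) of 40 G1/S genes (left) and 38 G2/M genes (right) in each cell, by name prefix, with budding cells as blue circles, progenies as orange triangles, unirradiated p53+/+ cells as grey squares and means as bars. Progenies of prefixes 1229 and 617 fall both above and below the budding cells, prefix 1219 has the highest budding cell at 6.97 in the right plot, and the unirradiated cells lie at 6.98 to 7.67 there.

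The cycle genes moved with the 2 progenies that had the most mitochondrial rRNA. Cells 617S1 and 1229S1 had G2/M levels of 6.10 and 6.20, the highest of the progenies. Without both cells the median log2 fold change was -0.08 for the G2/M list, 0.10 for the G1/S list and 0.18 for the homologous recombination list, with AURKB at -0.44, MKI67 at -0.083 and FANCA at 0.068. SPAST was at 1.53 without them. Without prefix 1219 the G2/M median was 2.61, and without prefix 707, which has 1 cell a stage, it was 0.41. The part of mitochondrial rRNA or of cell quality in these levels was not tested.

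CDKN1A, the gene of p21, was less abundant in progenies of all 4 prefixes. It ran from 143.8 to 3555 CPM in progenies (median 1508) and from 665.3 to 5414 CPM in budding cells (median 1800), with 3 progenies below the lowest budding cell. Both stages were mostly above the unirradiated cells, at 35.6 to 255.0 CPM, and 707G3 at 143.8 CPM was the progeny within their range. The difference was -0.61, -0.51, -0.60 and -2.53 on the log2 scale in prefixes 1219, 1229, 617 and 707, and the log2 fold change was -1.04 (SE 0.44). Without prefix 707 it was -0.55.

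Of 33 measured p53 target genes, 25 had a log2 fold change below 0, with a median of -0.39, and 1 in each direction had an unadjusted p under 0.05. Within prefixes the median was 0.01, -0.25, 0.03 and -0.74, and without prefix 707 the list median was 0.02, so that its sign rested on that pair of cells. GDF15, a secreted stress cytokine, had a log2 fold change of -0.75 (SE 0.35) with 462.5 to 1967 CPM in progenies and 534.4 to 2351 CPM in budding cells. CCNG1, cyclin G1, had one of -0.72 (SE 0.40). SESN2, a target of p53 and of the stress factor ATF4, was the exception with an unadjusted p under 0.05 in the other direction, at 1.70 (SE 0.66).

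BIK, a pro-apoptotic BH3-only protein of the endoplasmic reticulum, separated the stages best among the BCL2 family. It ran from 59.5 to 217.6 CPM in progenies (median 102.3) and from 155.8 to 311.9 CPM in budding cells (median 247). The ranges overlapped by 1 progeny, and 9 of 10 progenies were below the lowest budding cell. BIK was lower in all 4 prefixes, by -0.59 to -1.83 on the log2 scale, and its log2 fold change was -1.26 (SE 0.33). With each prefix left out in turn it lay between -1.04 and -1.45. Unirradiated cells were at 38.8 to 90.4 CPM. Of 15 measured BCL2 family genes 12 were below 0, with a median of -0.25. Of 22 measured secretory factors of senescence 15 were below 0, with a median of -0.36 and of -0.80 without prefix 617. Among them TIMP1, a metalloproteinase inhibitor, had a log2 fold change of -0.70 (SE 0.35) and was lower in all 4 prefixes.

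Genes that the study picked from these cells for the budding state were mostly less abundant in progenies of these 4 prefixes, and since they were chosen on these samples their direction is not independent evidence. The lists used hold only some of the genes in the panels of the study. Of 5 genes of the panel raised in pre-budding and budding cells, 0 were above 0 (median -0.68). Of 6 genes raised in budding cells and near the unirradiated level in progenies, 0 were (median -0.55), and of 21 genes raised in both budding cells and progenies 2 were (median -0.53). CST3, which encodes the secreted cathepsin inhibitor cystatin C, ran from 102.3 to 1174 CPM in progenies (median 426.9) and from 181.8 to 1698 CPM in budding cells (median 635.2), against 57.6 to 166.7 CPM in unirradiated cells. It was lower in all 4 prefixes, by -0.14 to -2.60, with a log2 fold change of -1.04 (SE 0.46) and of -0.53 without prefix 707. SELENOM, a selenoprotein of the endoplasmic reticulum, was lower in all 4 prefixes too (log2 fold change -0.68, SE 0.35). KRT19, a simple-epithelial keratin, had a log2 fold change of -0.66 (SE 0.39). SNCG, gamma-synuclein, ran from 38.2 to 145.6 CPM in progenies and from 37.4 to 128.3 CPM in budding cells, ranges that overlapped almost fully, with a log2 fold change of -0.59 (SE 0.35).

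HSPA5, HSP90B1 and CALR, chaperones of the endoplasmic reticulum, were more abundant in progenies of all 4 prefixes, while the wider stress list they belong to was not higher in prefix 1229. HSPA5, the chaperone BiP, ran from 241.0 to 6142 CPM in progenies (median 514.5) and from 98.3 to 1496 CPM in budding cells (median 364), against 711.5 to 1307 CPM in unirradiated cells. Its difference was 1.06, 0.85, 2.00 and 1.06 on the log2 scale in prefixes 1219, 1229, 617 and 707. The log2 fold change was 1.24 (SE 0.34) for HSPA5, 1.28 (SE 0.34) for HSP90B1, the chaperone GRP94, and 1.16 (SE 0.31) for CALR, the lectin chaperone calreticulin. Of 28 measured genes of the unfolded protein and integrated stress response, 25 were above 0, with a median of 0.79, 6 had an unadjusted p under 0.05 and were higher in progenies, and 8 were higher in all 4 prefixes. Over all genes 5.58% were higher in all 4. Within prefixes 1219, 1229, 617 and 707 the list median was 0.98, -0.05, 0.75 and 1.01, and 13 of 28 genes were above 0 in prefix 1229. PDIA3, a disulfide isomerase that works with calreticulin, is not on that list and gave -0.28, 0.85, 0.97 and -0.02 in the same prefixes (log2 fold change 0.38, SE 0.34).

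These chaperone promoters share the endoplasmic reticulum stress element, searched as CCAAT and CCACG with 9 bases of any kind between. They are shown because the 3 genes passed the naming rule together. The element, which is read by NF-Y and the stress factors ATF6 and XBP1, begins with the CCAAT box, so each match is also a CCAAT match. It stood in 6 of 27 genes of the list with a promoter (22.2%), against 0.0916% of all gene promoters, on either strand of the same 250 bases. Capitals mark it below, and it reads in reverse in the CALR window and in the second of the HSP90B1 windows.
HSPA5, chr9:125241385-125241414, minus strand: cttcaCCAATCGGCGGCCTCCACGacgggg
HSP90B1, chr12:103930211-103930240, plus strand: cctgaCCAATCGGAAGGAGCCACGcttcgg
HSP90B1, chr12:103930316-103930345, plus strand: gggtgCGTGGTGCGGCGCGATTGGtgggtt
CALR, chr19:12938379-12938408, plus strand: ccacgCGTGGTCGACCATCATTGGtcggtg

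A single progeny, 1219S4, had the highest level of this programme, with 6142 CPM of HSPA5, 9296 CPM of HSP90B1 and 620.1 CPM of CALR. It was also the shallowest cell, at 14589835 counts. Without it the list median was 0.39, about the value of 0.35 that 7 prefixes gave, and HSPA5 was at 1.05, HSP90B1 at 1.07 and CALR at 0.88. The same cell led the immediate early genes, of which 16 of 23 were above 0, with a median of 0.58 and of 0.22 without it. JUN, a subunit of the AP-1 transcription factor, was at 470.9 CPM in 1219S4 and at 2.08 to 70.4 CPM in the other progenies, with 0.74 to 36.5 CPM in budding cells. Its log2 fold change was 2.21 (SE 0.79), and 1.71 without the cell. EGR1, a growth factor-induced zinc finger protein, had one of 1.55 (SE 0.60), and 0.89 without the cell. NR4A1, an orphan nuclear receptor, had one of 1.43 (SE 0.56), and 1.18 without it. Each of the 3 was higher in all 4 prefixes, though in prefix 1229 EGR1 and NR4A1 differed by 0.002 and 0.022 on the log2 scale only.

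**Figure D3:**
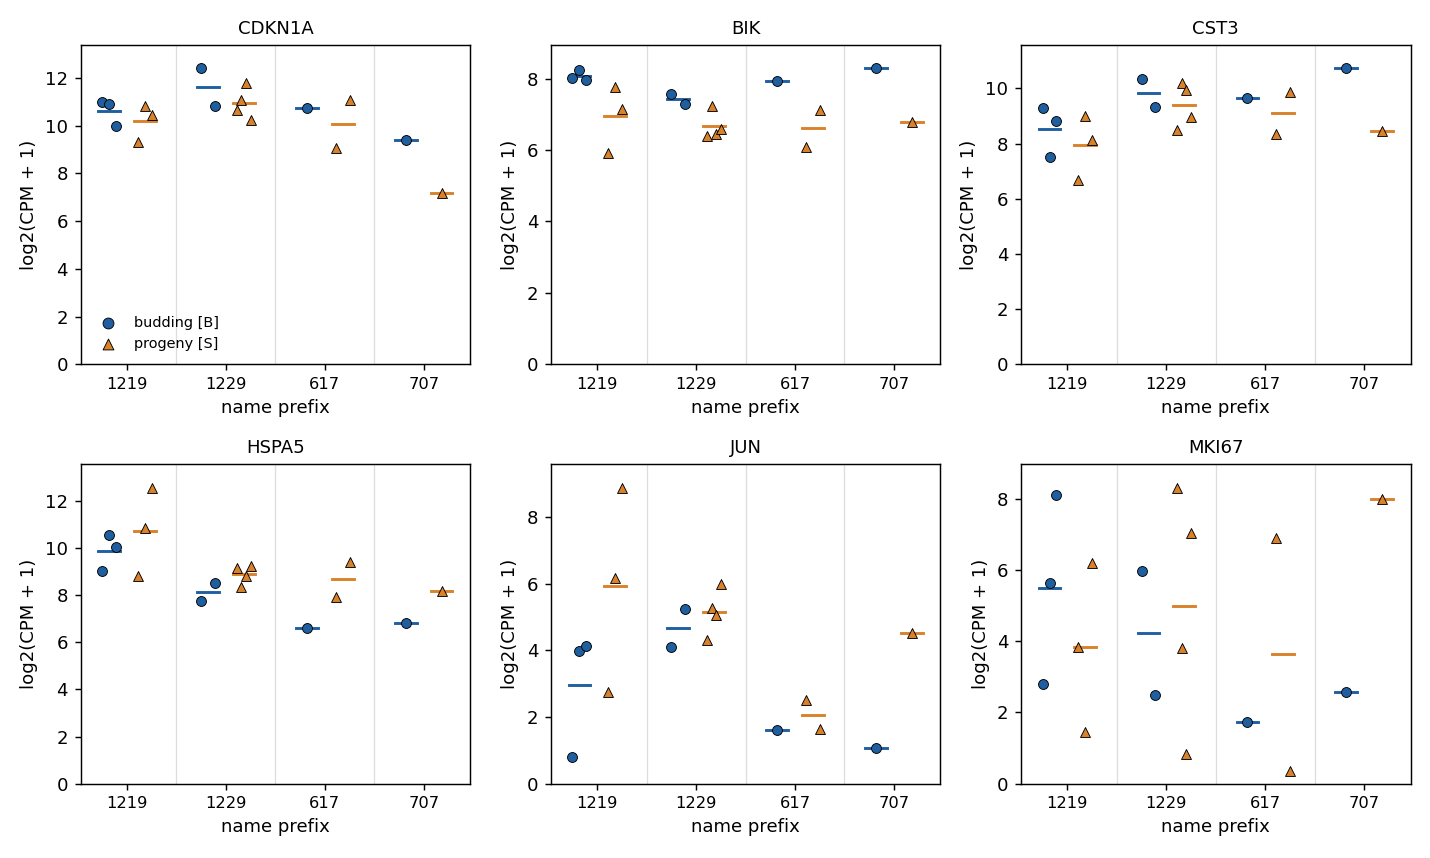
log2(CPM + 1) of 6 genes in each cell by name prefix, with budding cells as blue circles, progenies as orange triangles and means as bars. The mean bars of CDKN1A, BIK and CST3 are lower in progenies of each prefix and those of HSPA5 and JUN higher, while MKI67 goes either way, and the highest HSPA5 and JUN points are the 1 progeny 1219S4.

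By smallest p among genes that kept 1 direction in all 4 prefixes at a mean of at least 20 CPM, 6 genes were taken in each direction. On the higher side 3 of the 6 were the chaperones HSPA5, HSP90B1 and CALR described above. Of all genes 7.3% were lower in all 4 prefixes. SMIM29, a small membrane protein, ran from 0 to 63.6 CPM in progenies and from 43.7 to 93.1 CPM in budding cells, with 9 of 10 progenies below the lowest budding cell. Its differences of -1.52, -1.52, -1.44 and -1.43 differed little among prefixes (log2 fold change -1.48, SE 0.33). The gene was chosen for keeping 1 direction, and it was at 0.51 (SE 0.42) in the 3 other p53+/+ prefixes described below and at 0.27 (SE 1.12) in the p53-/- line. SERPINB1, an inhibitor of neutrophil elastase, ran from 6.03 to 73.8 CPM against 51.4 to 120.7 CPM (log2 fold change -1.46, SE 0.36). ACY1, aminoacylase 1, had no count in 4 progenies and 1 budding cell (log2 fold change -1.46, SE 0.33). CAMK2N1, an inhibitor of the calcium-dependent kinase CaMKII, had medians of 52.8 and 76.3 CPM (log2 fold change -1.34, SE 0.31). TRIM5, a restriction factor of retroviral capsids, had medians of 1.56 and 39.2 CPM and a log2 fold change of -2.05 (SE 0.50), even though the highest cell, at 110.8 CPM, was the progeny 1219S4. Higher in progenies were PNN, a protein of nuclear speckles and desmosomes (1.16, SE 0.31), KLHL42, a ubiquitin ligase adaptor (1.59, SE 0.44), and PHIP, a bromodomain protein (1.36, SE 0.39), each on the log2 fold change scale. Of the 10 progenies, 2, 2 and 5 were above the highest budding cell. In the 3 other p53+/+ prefixes ACY1 was at -0.21, CAMK2N1 at -0.91, SERPINB1 at -0.17, TRIM5 at -0.25, PNN at 0.60, KLHL42 at -0.03 and PHIP at 0.15.

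Genes of protein synthesis and respiration were slightly less abundant in progenies. Of 80 cytosolic ribosomal protein genes 78 were below 0, with a median of -0.34, and of 73 nuclear-encoded respiratory chain genes 70 were, with a median of -0.29. The mitochondrial ribosomal proteins had a median of -0.35, with 69 of 74 below 0. No ribosomal protein gene of the cytosol had an unadjusted p under 0.05. The prefixes disagreed, at 0.43, -0.10, -1.16 and -0.55 for the cytosolic ribosomal proteins and 0.68, 0.03, -1.22 and -0.54 for the respiratory chain in prefixes 1219, 1229, 617 and 707. SDHC, a membrane anchor of complex II, was lower in all 4 prefixes (log2 fold change -0.77, SE 0.30), as was MRPL36 of the large mitochondrial subunit (-0.82, SE 0.33).

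Interferon-stimulated genes gave no common direction. Of 33 measured 26 were above 0, with a median of 0.28, but the prefix medians were 1.27, -1.07, 0.28 and 1.47, and without prefix 1219 the median was -0.14. SP100, a nuclear body antigen, was higher in all 4 prefixes (log2 fold change 0.70, SE 0.30). OAS3, which senses double-stranded RNA, ran from 0 to 155.0 CPM in progenies and from 4.25 to 71.8 CPM in budding cells (log2 fold change 0.99, SE 0.48).

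The same contrast was then read in cells that share none of these libraries. In 9 progenies and 14 budding cells of the 3 other p53+/+ prefixes that hold both stages, edgeR called 0 of 16371 genes (0.0%), 4.97% had an unadjusted p under 0.05, and 43.5% were above 0. DESeq2 called 0.629% higher and 0.886% lower. The cycle genes pointed the same way there: the G2/M median was 1.55 with 38 of 38 genes above 0, and the G1/S median was 1.04 with 40 of 40. Of these, 23 and 25 had an unadjusted p under 0.05 and were higher in progenies, where 2.5% of all genes did, and 2.46% were lower. AURKB was at 2.39 (SE 0.37, adjusted p = 0.404 from edgeR, the lowest of that fit). SPAST, of the cytokinesis list, went the other way, at -1.02 (SE 0.65) and higher in 0 of these 3 prefixes. It did so in the p53-/- line too (-1.24, SE 1.28). CDKN1A was at -1.37 (SE 0.45) and lower in all 3 prefixes, and the p53 target median was -0.52. BIK was at -0.66 (SE 0.42). Not so the stress and ribosomal lists: the unfolded protein response had a median of -0.31, the immediate early genes -0.33 (though EGR1 was at 1.98, SE 0.61), the interferon-stimulated genes -0.59 and the cytosolic ribosomal proteins 0.82. The 3 panels the study picked turned as well, with medians of 0.14, 0.18 and 0.43, the last with 16 of 21 genes above 0. The difference between both sets of prefixes was not tested.

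In 4 progenies and 6 budding cells of the p53-/- line, edgeR called 0 of 13515 genes (0.0%), and 261 (1.93%) had an unadjusted p under 0.05, with 0.562% of genes higher and 1.37% lower in progenies. There 50.6% of genes were above 0, and DESeq2 called 0.207% higher and 0.599% lower. The G2/M median was 0.89 and the G1/S median 0.68, but 2 of 4 prefixes were below 0 in each. The test of stage by line called 0 of 16564 genes (0.0%), and 368 (2.22%) had an unadjusted p under 0.05. The same test in DESeq2 called 0.622%. For HSPA5 the log2 fold change was 1.24 in the 4 p53+/+ prefixes described and -0.15 in the p53-/- line, a difference of 1.36 (SE 0.51, adjusted p = 1 from edgeR). The 3 other p53+/+ prefixes did not share the rise. HSPA5 was at -0.36 (SE 0.42) in them and HSP90B1 at -0.39 (SE 0.42), each higher in 0 of 3, and CALR at -0.07 (SE 0.43). BIK was at 0.62 in the p53-/- line, a difference of -1.91 (SE 0.84, adjusted p = 1 from edgeR). CDKN1A was at -0.97 there (SE 0.83), a difference of -0.09 (SE 0.96). The p53 target list had a median of -0.90 in the p53-/- line (5 of 32 genes above 0), against -0.39 in the 4 p53+/+ prefixes. The highest p53-/- budding cell had a level of 6.96 in this list, where these cells had a median of 4.87. In the 4 p53+/+ prefixes budding cells ran from 5.54 to 6.96. The prefix of that p53-/- cell had a list median of -2.05, against -0.96, 0.13 and -0.56 in the others. The part of this cell in these values was not tested.

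**Figure D4:**
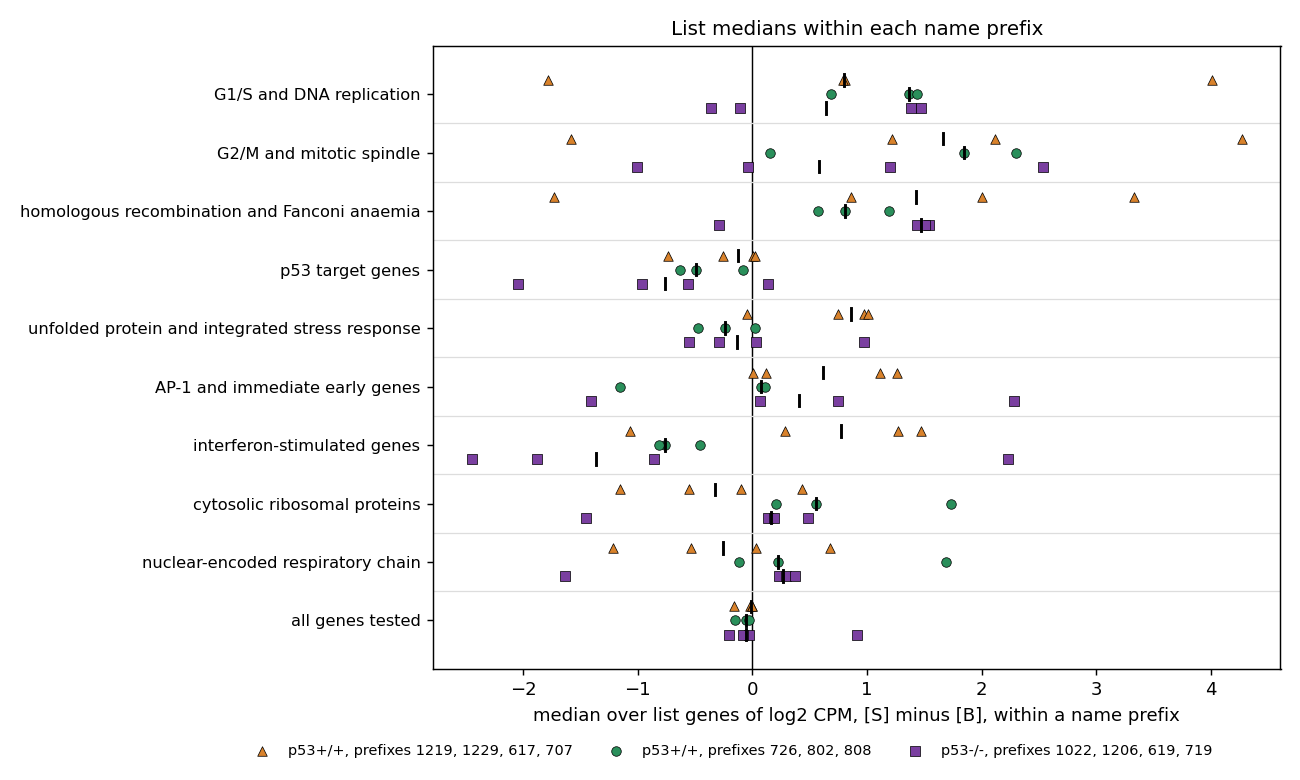
Each point is the median over a list of the log2 CPM difference, progenies minus budding cells, within 1 name prefix, and short black bars mark the median over prefixes. Orange triangles are the 4 prefixes described, green circles the 3 other p53+/+ prefixes and purple squares the 4 p53-/- prefixes. The G1/S and G2/M genes lie above 0 in all 3 other p53+/+ prefixes and in 3 of the 4 described, where prefix 1219 is at -1.78 and -1.58.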

How the data were processed

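RNA of single cells was measured by full-length SMART-seq. Per the labels and the study's methods, fastp, HISAT2 2.0 (genome GRCh38) and StringTie were used by the authors for trimming, alignment and expression. The deposited values are raw counts, a row a gene and a column a cell, and the tool that wrote the counts is not given in the sources used here. The labels name a NextSeq 500 and the methods another sequencer. FPKM values made by the authors were not used here.

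Of 43386 entries, 3837 have numbered names and were kept apart. They hold 1.44% of counts in the 17 cells. Such entries, histone and ribosomal genes with near copies, and overlapping genes share reads, and the counting is not stated to use strand. No pair of cells were copies (highest Pearson correlation 0.898). Counts were summed per name prefix and stage, so 1 deep cell can weigh most in a sum. The filter was filterByExpr with a minimum count of 10, plus a count in at least 3 cells. Sums were fitted with edgeR 4.0.16 (TMM, robust quasi-likelihood, Benjamini-Hochberg) in R 4.3.3, with the prefix as a block, and tested on simulated data first. Differences within a prefix use a prior count of 2, and cell levels a pseudocount of 1.

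Named genes follow a rule. They are the 6 genes a direction with the smallest p (none was called), at a mean of at least 20 CPM, with 1 direction in all 4 prefixes and no cell above 50% of the higher stage, up to 4 genes a list with the smallest p at 5 CPM or more, and genes the paper names. A selection of these is described. Members, lists and genes were chosen with earlier results of these data known. Alternatives were no block, DESeq2 1.42.0, library size, other filters, thinned cells, cells as replicates, 7 prefixes and each prefix left out. Leaving out 617S1 with 1229S1, or 1229S2, or 1219S4 was chosen after seeing the data. Python 3.11.15 with pandas 2.3.3 was used. Some genes are not reported here.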

Additional observations from a re-analysis of the deposited data

Results flagged for a closer look

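Of 140 groups of cells checked, 27 held a cell whose gap to the next was large for the range of its group. Chance flags about 1 in 20 groups where values follow a normal curve. The CPM values were checked without a log scale, and genes of a cell are not independent, so 27 cannot be set against that rate. Progeny 1219S4 stood apart in the mean level of the unfolded protein response list, at 8.10 against 6.03 in the next progeny. It did so too in HSP90B1 (9296 CPM against 1784), HSPA5 (6142 against 1843), CALR (620.1 against 218.7), SESN2 (309.1 against 68.3), JUN (470.9 against 70.4), EGR1 (1223 against 302.4), NR4A1 (302.9 against 110.3) and TRIM5 (110.8 against 20.1).

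Budding cell 1219G3 stood apart in genes of the cell cycle. It held 274.7 CPM of MKI67 against 61.8 in the next budding cell, 123.9 CPM of KIF23 against 24.9, 120.1 CPM of CENPF against 32.3, 89.6 CPM of AURKB against 33.1 and 203.0 CPM of UBE2T against 57.8. Among progenies, 707G3 held 158.3 CPM of CHAF1A against 29.6 in the next and 232.1 CPM of UBE2T against 106.4, and 1229S1 held 82.8 CPM of INCENP against 38.6.

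Budding cell 1229G1 held 5414 CPM of CDKN1A against 2024 in the next and 523.7 CPM of CAMK2N1 against 215.1. Budding cell 1229G3 held 215.8 CPM of EGR1 and 64.1 CPM of NR4A1, against 64.0 and 25.8 in the next. Budding cell 1219G1 held 157.2 CPM of SP100. Progeny 1219S3 was highest in SP100 (255.5 CPM) and CDH1, which encodes E-cadherin (103.97 CPM). Progeny 1229S2 held 128.9 CPM of SPAST against 46.1. Progeny 617S1 had 48.2% of counts in its 50 highest genes against 32.4%, and 1219S1 was lowest, at 5.74 against 6.85, in the panel raised in budding cells and progenies.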

How the results depend on the processing

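In the 4 prefixes edgeR called 0 genes under each alternative run, and DESeq2 called 89 on the sums (0.577% of genes tested) and 62 with cells as replicates (0.452%). DESeq2 on the sums called 248 genes in the other p53+/+ prefixes (1.51%), 109 in the p53-/- line (0.807%) and 0.622% for stage by line. Leaving out each prefix in turn, edgeR called 1 to 16 genes in the other prefixes (0.00611% to 0.0917%), 0 to 2 in the p53-/- line (0 to 0.0155%) and 0 for stage by line. Of 47 genes named, 44 kept their sign under every alternative, and AURKB (-0.44) and MKI67 (-0.083) turned without the 2 cells over 20% mitochondrial rRNA and RPL10 (0.056) with 7 prefixes. DESeq2, which made many more false calls than edgeR on simulated sums, took 9 of them past the threshold: BIK, HSP90B1, HSPA5, SMIM29, ACY1, CAMK2N1, SERPINB1, TRIM5 and PNN, and with cells as replicates HSP90B1. Of 18 list medians 9 kept their sign. The G2/M list was at -0.08 without those 2 cells, the cytosolic ribosomal list was at 0.15 and the respiratory chain at 0.08 with 7 prefixes, and the p53 targets at 0.02 without prefix 707. The cause was not tested.

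Without the replicate block edgeR also called 0 genes, with 315 at an unadjusted p under 0.05 against 435. Deviations of [S] and [B] sums from their stage means correlated at 0.073 to 0.165 for the same prefix and at -0.12 to 0.089 for different ones, so the pairing by prefix is a hint from the data. Prefix 707 holds 1 cell a stage, and leaving it out gave 449 genes at an unadjusted p under 0.05. What depth adds to the spread was not tested beyond thinning, which gave 0 calls and 417 such genes.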

Other observations

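Outside the groups above, lipid synthesis was split. IDI1, the isomerase that makes the allylic building block of sterols, had medians of 55.4 CPM in progenies and 96.4 CPM in budding cells and was lower in all 4 prefixes (log2 fold change -1.33, SE 0.43). FASN, fatty acid synthase, had medians of 64.7 and 33.6 CPM and was higher in all 4 (0.69, SE 0.35). RIF1, which steers breaks to end joining and times replication, was higher in all 4 prefixes (1.61, SE 0.60), with medians of 37.5 and 15.4 CPM. MALAT1, a nuclear long noncoding RNA, ran from 27.6 to 14744 CPM in progenies and from 197.9 to 11373 CPM in budding cells (1.29, SE 0.53). None was called.

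Histone genes gave no common direction. Of 15 measured replication-dependent histone genes 4 were above 0, with a median of -0.44. Prefix medians were -0.06, 0.24, -0.36 and -2.66 in 1219, 1229, 617 and 707, and without prefix 707 the list median was 0.36. HIST1H4C had medians of 125.4 CPM in progenies and 102.9 CPM in budding cells (log2 fold change 1.00, SE 0.56), and HIST1H2BK, whose transcript can be polyadenylated outside S phase, had 59.4 and 101.6 CPM (-1.10, SE 0.63).

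The smallest unadjusted p for stage by line among the genes named was that of CDH1, at 0.00156 from edgeR (adjusted p = 1). CDH1 was at 0.76 (SE 0.37) in the p53+/+ prefixes and at -2.39 (SE 0.76) in the p53-/- line. DDIT4, an mTORC1 inhibitor that p53 and hypoxia induce, was at 1.04 (SE 0.37) and -2.68 (SE 1.26). Of the measured lists none was tested for this difference.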
